A study of Mus musculus with 8 samples.

Results

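The receptors that natural killer (NK) cells use to read other cells, the toxic granule proteins they release, and the interleukin-15 (IL-15) system that sustains them were examined in mouse endometrium 8 h after mating. Members were chosen by gene symbol: every gene on the array whose symbol began with 1 of 9 prefixes (Klra, Klrb, Klrc, Klrd, Klre, Klrg, Klri, Klrk or Gzm), and 10 further genes (Prf1, Ncr1, Nkg7, Il15, Il15ra, Il2rb, Eomes, Tbx21, Cd244 and Tyrobp). This gave 46 genes of 24647 with a symbol, each measured by 1 of the array's 41345 transcript clusters, which are the groups of probes that report a transcript. Klraq1 matched by prefix alone and is not an NK receptor, which left 45 members of the intended kind.

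The females were CBA x C57Bl/6 F1 (CBAF1) mice and the males Balb/c. Females had mated either with Intact males, which exposed them to seminal fluid, or with SVX/VAS males, which gave coitus without that exposure. The labels expand neither SVX nor VAS, the sources used here do not give the females' age, and a vaginal plug was checked only for Intact males. Endometrium was scraped from the opened uterus and the myometrium discarded. Affymetrix Mouse Gene 2.0 ST arrays were used, 4 for each of the 2 groups. An array held the RNA of 4 females in a pool (16 females a group), and replicates are therefore pools of separate animals.

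NK cells carry inhibitory receptors for MHC class I, which stop them from attacking cells that display normal class I molecules, and activating receptors that trigger release of perforin and granzymes. In rodents the class I receptors are mostly the lectin-like Ly49 proteins encoded by the Klra genes, with the CD94 and NKG2 pairs encoded by the Klrd and Klrc genes. The number and identity of Ly49 genes differ between inbred strains. The uterus holds its own NK cells, which depend on IL-15 and become abundant in the decidua after implantation.

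The arrays were alike in overall level, with medians of 5.35 to 5.41 log2 units, and correlated at 0.971 to 0.978 among Intact pools and 0.981 to 0.984 among SVX/VAS pools across all clusters. Of the markers of endometrial epithelium, 10 of 10 lay above a background reference on all 8 arrays, as did 8 of 10 markers of stroma. The same held for 6 of 8 smooth muscle markers, and whether these came from myometrium was not tested. The reference was the 95th percentile of 1128 olfactory receptor clusters on each array (5.23 to 5.45 log2), used because these genes are taken to be silent in uterus.

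None of the 46 members differed between the groups after adjustment. With limma's moderated test and Benjamini-Hochberg adjustment over all 41345 clusters, 0 of 46 members had an adjusted p under 0.05, where 0.0822% of all clusters did (0.0508% higher and 0.0314% lower after Intact mating). The lowest adjusted p of a member was 0.45. The submitters called a change of 1.5-fold or more whose unadjusted p was below 0.05. By these criteria 0 of 46 members were called, against 1.86% of all clusters (0.733% higher and 1.12% lower). At an unadjusted limma p under 0.05 the member count was again 0, against 11.9% of all clusters and 7.00% of the clusters that exceeded the reference on all 4 arrays of neither group, as 36 of the members did. Differences ranged from -0.35 to 0.30 log2 units with a median of -0.044 (median over all clusters 0.00047), and 19 were positive and 27 negative. In size they were typical of the array: the median absolute difference was 0.13 for the members and 0.13 for all clusters. A p that misses the threshold does not show equality, so intervals are given. For 29 of 46 members the 95% interval lay within 1.5-fold in either direction (68.4% of all clusters), and for 43 of 46 within 2-fold. The exceptions to 2-fold were Klra9, Gzmb and Gzme. Of the 29, 21 were among the 36 members just named and 8 among the other 10. Those 36 were weak, and background compresses their folds. Their intervals therefore bound the measured fold and not the change in transcript.

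**Figure D1:**
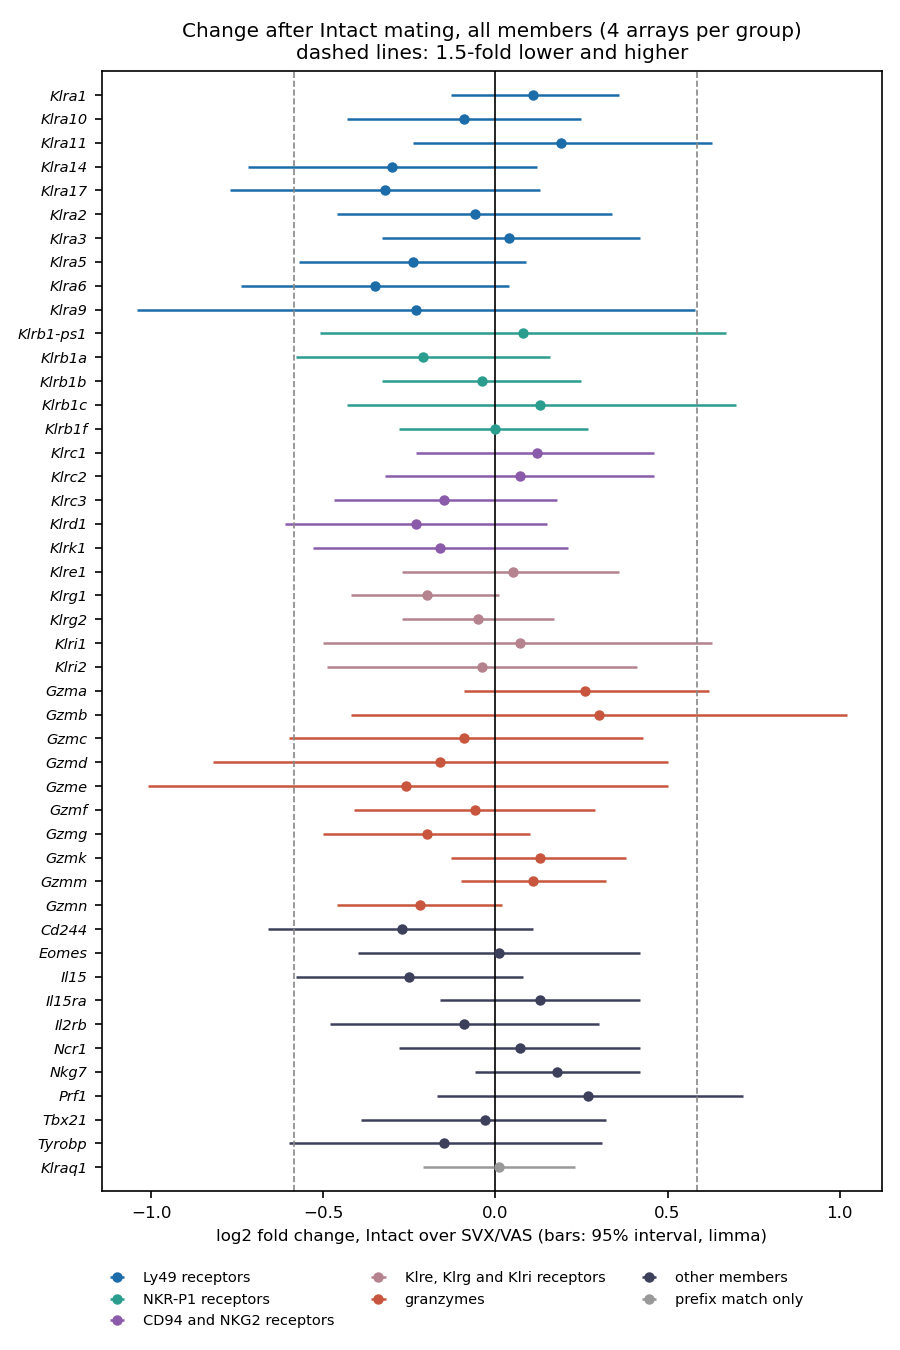
Log2 fold change of each of the 46 members, Intact over SVX/VAS (horizontal axis), with points for the estimate, bars for the 95% interval of limma's fit and colours for the role group. All 46 bars cross 0, and those of Klra9, Gzmb and Gzme reach beyond 2-fold.

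Level set a limit on what could be seen. Only 7 members lay above the reference on all 8 arrays (Il15, Il15ra, Nkg7, Prf1, Tyrobp, Klrg2 and Klraq1), and 34 of 46 lay below it on every array. Those below included genes that define NK cells, among them Ncr1, Klrb1c, Klrd1, Klrk1 and Eomes. A value below the reference is not shown to be silence, but fold changes of such weak genes are compressed by the background that remains in the values. In RNA from whole endometrium, fewer NK cells and less transcript per NK cell cannot be told apart.

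The members from the IL-15 system were the cytokine, Il15ra (the chain that presents it on neighbouring cells) and Il2rb (a signalling chain shared with the IL-2 receptor). Il2rg, of the gamma chain list and named after its values were seen, differed by 0.06 (SE 0.19, limma adjusted p = 0.93). Il15 read 5.95, 6.09, 6.41 and 6.34 log2 in Intact pools 1 to 4 and 6.20, 6.47, 6.41 and 6.72 in SVX/VAS pools 1 to 4. The 2 lowest values were both Intact and the highest was SVX/VAS, yet the groups overlapped. The mean was 1.19-fold lower after Intact mating (log2 difference -0.25, SE 0.15, limma adjusted p = 0.54), with a 95% interval from 0.670-fold to 1.06-fold. Il15ra read 6.35, 6.64, 6.16 and 6.10 in Intact pools and 6.24, 6.25, 6.12 and 6.12 in SVX/VAS pools. Its spread was wider after Intact mating (SD 0.24 against 0.07, n = 4 each). The difference of 0.13 (SE 0.13, limma adjusted p = 0.74) was 0.02 without Intact pool 2, the highest array. Il2rb read 5.66, 5.42, 5.77 and 5.59 in Intact pools and 5.52, 5.32, 5.88 and 6.09 in SVX/VAS pools. The SVX/VAS pools spanned the whole range of the Intact pools. Its difference was -0.09 (SE 0.17, limma adjusted p = 0.88), and it turned to 0.04 without SVX/VAS pool 4.

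The 10 genes of the Ly49 family, which includes class I receptors, lay below the reference on all 8 arrays, with values between 1.84 and 4.67. Of these, 3 had a positive difference and 7 a negative one, with a median of -0.16. Klra6 was the member with the most negative difference. It read 2.52, 2.05, 2.67 and 2.32 in Intact pools and 2.84, 2.78, 2.97 and 2.36 in SVX/VAS pools. SVX/VAS pool 4 lay inside the Intact range and the other 3 above it. The mean was 1.27-fold lower after Intact mating (-0.35, SE 0.17, limma adjusted p = 0.46), with an interval from 0.600-fold to 1.03-fold. Klra1 read 2.68, 2.48, 2.77 and 2.47 in Intact pools and 2.39, 2.53, 2.40 and 2.62 in SVX/VAS pools, a difference of 0.11 (SE 0.11, limma adjusted p = 0.73). The remaining 8 ranged from -0.32 (Klra17) to 0.19 (Klra11). The widest interval of the family belonged to Klra9, from 0.486-fold to 1.50-fold, whose values spread from 2.56 to 3.98 among Intact pools. Ly49 genes are close in sequence and may share probes, so that their values may not be independent, which was not tested.

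The NKR-P1 receptors, encoded by Klrb1 genes, include Klrb1c, the NK1.1 antigen used to identify NK cells in C57BL/6 mice, and the inhibitory receptor Klrb1b. All 5 lay below the reference on all 8 arrays. Klrb1c read 3.88, 3.86, 4.59 and 3.75 in Intact pools and 4.17, 4.34, 3.65 and 3.40 in SVX/VAS pools. The highest value was Intact pool 3 and the lowest SVX/VAS pool 4, with the others mixed. Its difference of 0.13 (SE 0.25, limma adjusted p = 0.88) turned to -0.06 without Intact pool 3 and to -0.03 without SVX/VAS pool 4. Klrb1a, an activating receptor, read 3.01, 3.01, 3.18 and 2.81 in Intact pools and 3.04, 2.90, 3.28 and 3.64 in SVX/VAS pools, a difference of -0.21 (SE 0.16, limma adjusted p = 0.66). The other members, Klrb1b, Klrb1f and the pseudogene Klrb1-ps1, lay between -0.04 and 0.08.

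Klrd1 encodes CD94, the partner of the NKG2 chains, Klrc1 the inhibitory NKG2A, and Klrk1 the activating receptor NKG2D, which recognises stress ligands. These 5 genes, with Klrc2 and Klrc3, also lay below the reference on all arrays. Klrd1 read 4.45, 4.56, 4.53 and 4.29 in Intact pools and 4.50, 4.39, 4.66 and 5.18 in SVX/VAS pools. A single SVX/VAS pool, number 4, stood above the rest. The difference of -0.23 (SE 0.17, limma adjusted p = 0.65) became -0.06 without it. Klrk1 read 3.39, 3.84, 3.58 and 3.99 in Intact pools and 3.58, 3.99, 3.76 and 4.10 in SVX/VAS pools. The groups interleaved, with a difference of -0.16 (SE 0.16, limma adjusted p = 0.75). Klrc1 read 3.83, 4.31, 3.56 and 3.88 in Intact pools and 3.73, 3.67, 3.79 and 3.91 in SVX/VAS pools. The difference was 0.12 (SE 0.15, limma adjusted p = 0.81), and it turned to -0.02 without Intact pool 2, the highest array.

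Among the Klre, Klrg and Klri receptors, Klrg1, an inhibitory receptor for cadherins found on mature NK and T cells, had the lowest adjusted p of all members. It read 4.44, 4.30, 4.57 and 4.48 in Intact pools and 4.58, 4.75, 4.59 and 4.70 in SVX/VAS pools. It was the 1 member of 46 whose groups did not overlap, against 8.17% of all clusters (4.81% lower and 3.37% higher), and the gap between the highest Intact and the lowest SVX/VAS pool was 0.005 log2 units. The mean was 1.15-fold lower after Intact mating (-0.20, SE 0.10, limma adjusted p = 0.45), with an interval from 0.747-fold to 1.01-fold. In the authors' deposited table its unadjusted p was 0.028, and 12.0% of all clusters in that table had an unadjusted p under 0.05. All 8 values lay below the reference. Klre1, a receptor that pairs with Klri1 or Klri2, read 4.27, 4.57, 4.20 and 4.02 in Intact pools and 4.13, 4.01, 4.30 and 4.43 in SVX/VAS pools (difference 0.05, SE 0.14, limma adjusted p = 0.93). Klrg2 was above the reference on all 8 arrays and differed by -0.05, with an interval within 1.5-fold.

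Outside the Klr families, Ncr1 encodes the activating receptor NKp46, a defining marker of NK cells and related innate lymphoid cells. It read 4.38, 4.49, 4.72 and 4.74 in Intact pools and 4.51, 4.22, 4.44 and 4.90 in SVX/VAS pools. The SVX/VAS values enclosed the Intact ones, and the difference was 0.07 (SE 0.16, limma adjusted p = 0.90). Cd244, the 2B4 receptor, read 4.33, 4.70, 4.32 and 4.71 in Intact pools and 4.58, 4.55, 4.81 and 5.21 in SVX/VAS pools. Its mean was 1.21-fold lower after Intact mating (-0.27, SE 0.17, limma adjusted p = 0.57), and the difference was -0.13 without SVX/VAS pool 4. Tyrobp, the adaptor DAP12 that carries the signal of several activating receptors and is also made by macrophages and neutrophils, read 5.65, 6.40, 6.44 and 5.90 in Intact pools and 5.93, 6.19, 6.30 and 6.55 in SVX/VAS pools. The lowest array of all was Intact pool 1. The difference of -0.15 (SE 0.20, limma adjusted p = 0.82) was 0.00 without it. On that same pool the macrophage and monocyte markers lay at a median of -0.43 from their means over 8 arrays. Markers of stroma (-0.68), smooth muscle (-0.70) and endothelium (-0.52) were low there too. Pan-leukocyte genes lay at -0.13, T cell markers at 0.03 and epithelial markers at 0.09. The part of cell content in Tyrobp's values was not tested.

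Both T-box transcription factors that direct NK cell maturation showed differences near 0. Eomes read 4.31, 4.38, 4.61 and 4.26 in Intact pools and 3.84, 4.45, 4.59 and 4.64 in SVX/VAS pools (difference 0.01, SE 0.18, limma adjusted p = 0.99). Tbx21, which encodes T-bet, read 5.75, 5.53, 5.14 and 5.45 in Intact pools and 5.64, 5.24, 5.40 and 5.72 in SVX/VAS pools (difference -0.03, SE 0.16, limma adjusted p = 0.96). For both genes the order of the pools was mixed, and their intervals lay within 1.5-fold.

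**Figure D2:**
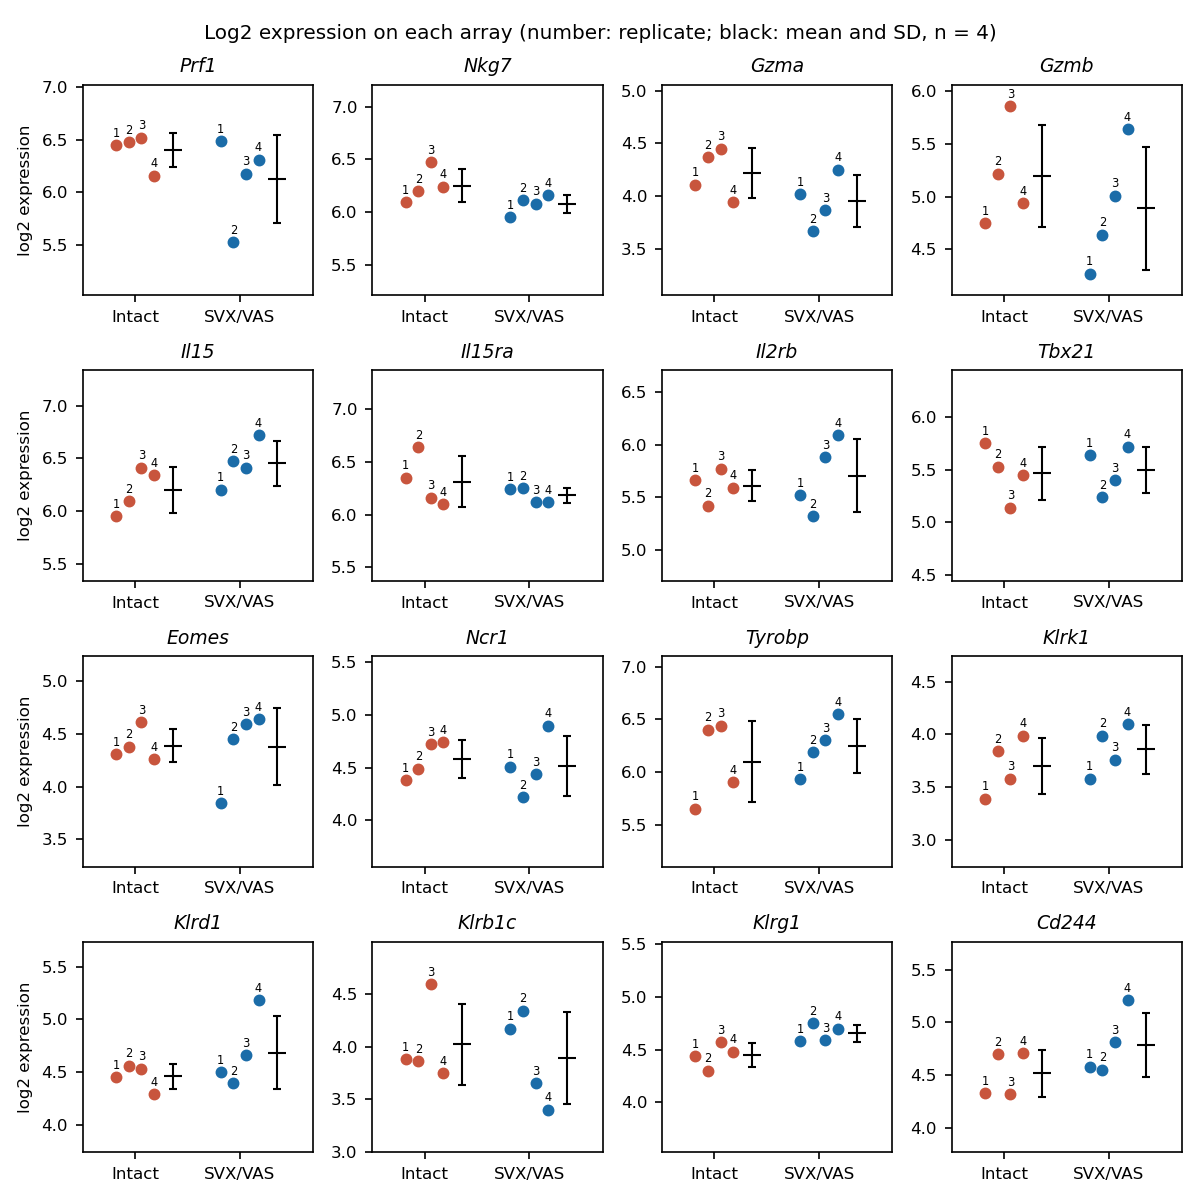
Log2 expression (vertical axis, each panel spanning 2 log2 units) of 16 members on each array, with dots numbered by pool and black bars for the mean and SD of 4 pools. Of the genes drawn, Klrg1 alone has groups that do not overlap, and SVX/VAS pool 2 stands low for Prf1 at 5.53.

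The granule genes comprise Prf1, the pore-forming protein perforin, Nkg7, a granule membrane protein of cytotoxic cells, and 10 granzymes, serine proteases delivered into target cells. Prf1 read 6.45, 6.48, 6.52 and 6.16 in Intact pools and 6.49, 5.53, 6.18 and 6.31 in SVX/VAS pools. A low SVX/VAS pool 2 set most of its difference. The mean was 1.21-fold higher after Intact mating (0.27, SE 0.20, limma adjusted p = 0.64; interval 0.886-fold to 1.65-fold), and the difference was 0.07 without that pool. Nkg7 read 6.09, 6.20, 6.47 and 6.24 in Intact pools and 5.95, 6.11, 6.08 and 6.16 in SVX/VAS pools. Intact pools 2, 3 and 4 were above every SVX/VAS pool and Intact pool 1 was not. Its mean was 1.13-fold higher (0.18, SE 0.11, limma adjusted p = 0.55), with an interval from 0.958-fold to 1.34-fold.

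Gzma, a tryptase-like granzyme on chromosome 13 per the deposited annotation, read 4.11, 4.37, 4.45 and 3.94 in Intact pools and 4.02, 3.67, 3.87 and 4.25 in SVX/VAS pools. The difference was 0.26 (SE 0.16, limma adjusted p = 0.55) between overlapping groups. Gzmk, its neighbour on that chromosome, and Gzmm differed by 0.13 and 0.11. Gzmm was the granzyme seen above the reference on the most arrays, 7 of 8.

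The other 7 granzymes (Gzmb, Gzmc, Gzmd, Gzme, Gzmf, Gzmg and Gzmn) lie together on chromosome 14. Gzmb, which activates caspases in target cells, had the largest positive difference of the members, 0.30 (SE 0.32, limma adjusted p = 0.76), and an interval from 0.748-fold to 2.03-fold. It read 4.75, 5.22, 5.86 and 4.94 in Intact pools and 4.27, 4.64, 5.01 and 5.64 in SVX/VAS pools. Each group held a high pool, Intact pool 3 and SVX/VAS pool 4, and those were the 2 arrays on which Gzmb exceeded the reference. The difference was 0.08 without Intact pool 3, 0.09 without SVX/VAS pool 1 and 0.55 without SVX/VAS pool 4. Gzmn had the smallest p of the cluster. It read 3.88, 3.87, 3.98 and 3.64 in Intact pools and 4.04, 4.22, 3.96 and 4.02 in SVX/VAS pools, a mean 1.16-fold lower after Intact mating (-0.22, SE 0.11, limma adjusted p = 0.47). Gzmc, Gzmd, Gzme, Gzmf and Gzmg had differences from -0.26 to -0.06, and limma adjusted p-values from 0.60 to 0.92.

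These granzymes varied between pools within each group. SVX/VAS pool 4 was the highest array for 5 of the 7 chromosome 14 genes. Gzmc read 4.79 there against 3.81 to 4.24 in the other SVX/VAS pools, Gzmd 3.71 against 2.54 to 3.03, and Gzme 3.92 against 2.56 to 3.85. The median deviation of the 7 genes from their means over 8 arrays was 0.60 on SVX/VAS pool 4, 0.29 on Intact pool 3 and -0.32 on SVX/VAS pool 2. Probes shared between related genes could give them shared values, which was not tested.

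The regions before the gene starts of 4 of them are shown: Gzmc, Gzmd and Gzme, examples of the 5 genes highest on SVX/VAS pool 4 (the others were Gzmf and Gzmg), and Gzmb, which was highest on Intact pool 3. They are the 250 bases upstream of each gene start from RefSeq on GRCm38.p6, all on the minus strand of chromosome 14, written 5′ to 3′ on the gene's strand. The genes to print and the motifs to search were chosen after the values had been seen. Capitals mark the Runt motif TGTGGTT or its complement AACCACA, and the ETS motif CAGGAAG or its complement CTTCCTG, which do not overlap in these sequences. Gzmb is at chr14:56262335-56262584, Gzmc at chr14:56234658-56234907, Gzmd at chr14:56132594-56132843 and Gzme at chr14:56120626-56120875.
Gzmb: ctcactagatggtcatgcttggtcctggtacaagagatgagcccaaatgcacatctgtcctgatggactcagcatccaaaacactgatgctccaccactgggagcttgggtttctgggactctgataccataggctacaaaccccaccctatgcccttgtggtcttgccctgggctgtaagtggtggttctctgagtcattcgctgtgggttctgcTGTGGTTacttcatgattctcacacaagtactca
Gzmc: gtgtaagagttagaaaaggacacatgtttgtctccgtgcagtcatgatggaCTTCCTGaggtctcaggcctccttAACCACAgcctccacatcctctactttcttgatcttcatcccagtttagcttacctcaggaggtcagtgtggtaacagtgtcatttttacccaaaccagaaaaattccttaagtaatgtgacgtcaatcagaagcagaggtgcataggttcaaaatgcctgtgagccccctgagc
Gzmd: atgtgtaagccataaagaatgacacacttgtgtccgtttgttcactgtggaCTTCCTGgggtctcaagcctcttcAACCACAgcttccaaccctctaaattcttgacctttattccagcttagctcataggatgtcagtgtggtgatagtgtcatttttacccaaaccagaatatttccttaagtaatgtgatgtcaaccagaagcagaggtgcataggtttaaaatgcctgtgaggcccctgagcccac
Gzme: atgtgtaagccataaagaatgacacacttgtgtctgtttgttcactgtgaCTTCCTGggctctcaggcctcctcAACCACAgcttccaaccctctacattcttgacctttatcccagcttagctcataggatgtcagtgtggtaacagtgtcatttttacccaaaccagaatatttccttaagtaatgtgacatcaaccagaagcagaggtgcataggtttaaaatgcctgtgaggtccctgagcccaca

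Over these windows Gzmd and Gzme were 94.8% identical, and Gzmc shared 80.5% with Gzmd and 80.9% with Gzme. Gzmb was the distant copy, with 44.1% to 47.5% identity to the other 3. The Runt motif was found in 6 of the 7 chromosome 14 granzymes and in 11 of the 37 members with a promoter in the RefSeq table, and 4.40% of all 32851 promoters of that length held it. The ETS motif was found in 5 of the 7 and in 9 of the 37 members, against 10.8% of all promoters. In Gzmc and Gzmd the motifs began at the same offsets, 199 bases (ETS) and 175 bases (Runt) before the start. The copies share sequence, so these counts are not independent. Of 3 further motifs searched on both strands, the T-box motif GGTGTGA was in 3 of 37 members (3.33% of all promoters), TTCNNNGAA (STAT) in 4 (7.02%) and TGACTCA (AP-1) in 3 (4.46%). A match describes the letters and is not evidence of binding.

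Across all 46 members the same 2 pools stood high. SVX/VAS pool 4 was the highest array for 15 members (32.6%) and Intact pool 3 for 13 (28.3%), while over all clusters these pools were highest for 12.6% and 15.7%. The median member deviated by 0.18 on SVX/VAS pool 4 and by 0.12 on Intact pool 3, where the median cluster deviated by 0.01 and 0.00. Of the 15 members highest on SVX/VAS pool 4, 5 were chromosome 14 granzymes. Among the 36 weak members, those above the reference on all 4 arrays of neither group, the medians were 0.19 and 0.15. Among the other 10 members they were 0.04 and 0.11. Over all weak clusters the medians on these pools were -0.01 and 0.04, and the pools were highest for 11.8% and 18.5%. These pools belong to opposite groups. Without SVX/VAS pool 4 the members' median difference was 0.022 in place of -0.044, and without Intact pool 3 it was -0.099. It was also lower, at -0.098, without SVX/VAS pool 2.

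Markers of other cells also varied between pools. Pan-leukocyte genes lay at a median deviation of 0.35 on Intact pool 3, 0.27 on Intact pool 2 and 0.22 on SVX/VAS pool 4. T cell markers lay at 0.04 on Intact pool 3 and -0.14 on SVX/VAS pool 4. Stromal markers ran from -0.68 on Intact pool 1 to 0.42 on SVX/VAS pool 3, endothelial markers from -0.52 on Intact pool 1 to 0.40 on Intact pool 3, and smooth muscle markers from -0.70 on Intact pool 1 to 0.48 on Intact pool 4. The part of tissue make-up in the members' spread was not tested.

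**Figure D3:**
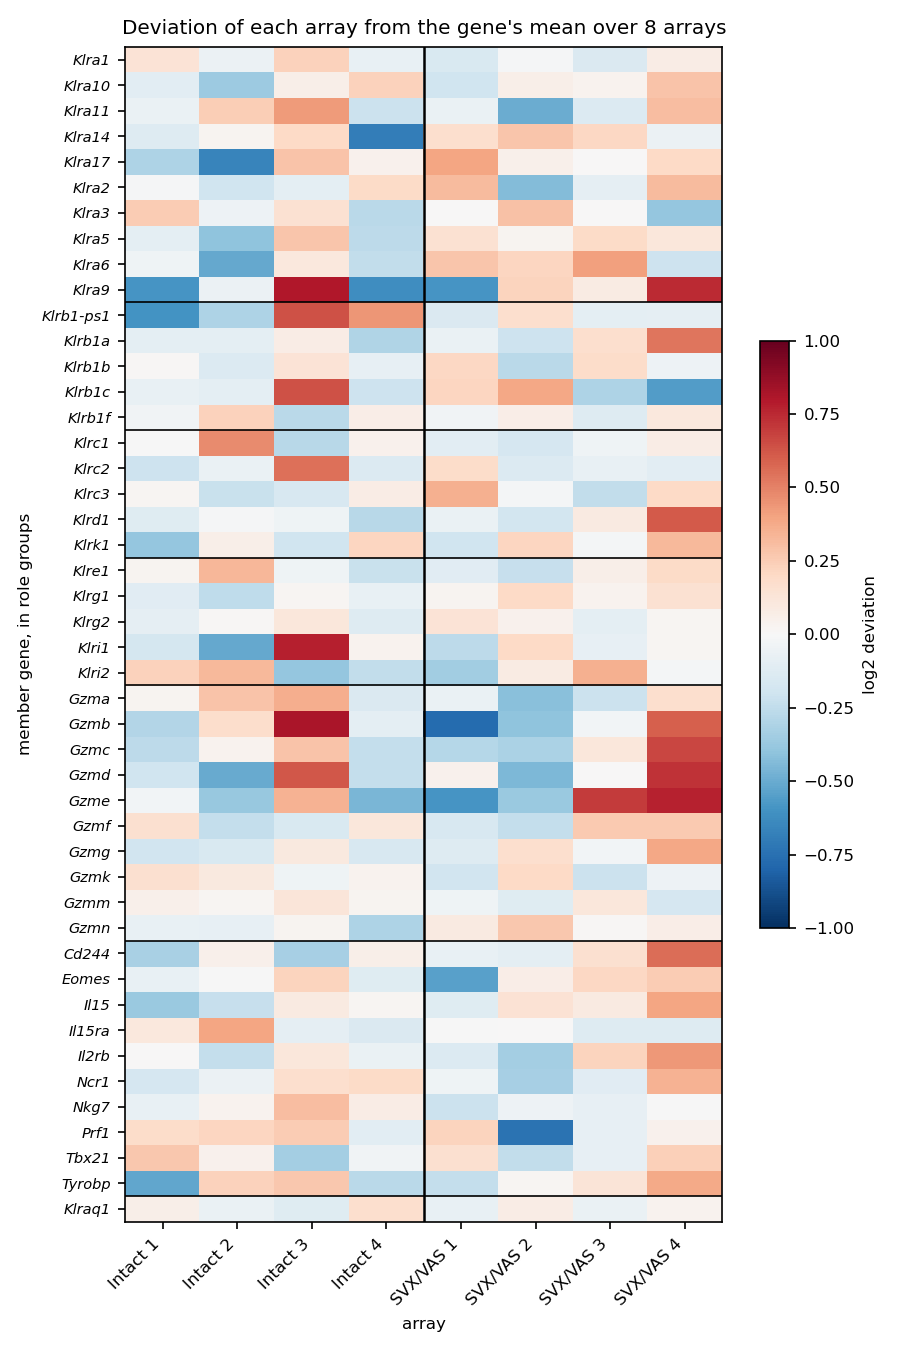
Deviation of each array (columns) from a member's mean over 8 arrays (rows, in role groups), in log2 units from -1 (blue) to 1 (red). The columns of Intact pool 3 and SVX/VAS pool 4 hold the highest value of 13 and 15 members, and the chromosome 14 granzymes have median deviations of 0.29 and 0.60 there.

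Genes of the wider NK pathway were taken from 8 lists, and limma called 0 of their members at an adjusted p under 0.05. Over all clusters, limma called 0.0822%, and 1.86% passed the submitters' criteria. Of the lists of 15 measured adaptors and proximal signalling genes, 18 other NK surface receptors, 9 markers of tissue-resident NK cells and type 1 innate lymphoid cells, 17 ligands of NK receptors, 12 transcription factors and 16 genes of granule biogenesis and release, none held a gene past the submitters' criteria. Their median differences were -0.03, 0.08, -0.03, -0.03, 0.02 and -0.07. At an unadjusted limma p under 0.05 they held 1, 4, 0, 3, 0 and 2 genes, where 11.9% of all clusters passed. Listed genes with no row under their symbol or an older one were Cd247, Zfp683, Raet1a, Raet1d and H2-D1, which were not analysed here.

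The adaptor with the smallest p was Sh2d1b1, which encodes the SLAM-family adaptor EAT-2. It read 3.37 to 3.60 in Intact pools and 3.65 to 3.91 in SVX/VAS pools, a difference of -0.35 (SE 0.10, limma adjusted p = 0.21). Next was Fyn, a Src-family kinase (-0.29, SE 0.16, limma adjusted p = 0.52). Of the surface receptors, S1pr5, a sphingosine phosphate receptor for the exit of NK cells from tissue, read 5.45 to 5.62 in Intact pools and 5.14 to 5.30 in SVX/VAS pools (0.33, SE 0.09, limma adjusted p = 0.18). The inhibitory collagen receptor Lair1 differed by -0.31 (SE 0.10, limma adjusted p = 0.25). Each of Sh2d1b1, S1pr5 and Lair1 had groups that did not overlap, and none had an adjusted p under 0.05. Fcgr3, of the surface receptor list and named after its values were seen, did not overlap either (0.29, SE 0.12, limma adjusted p = 0.37). Over all clusters 8.17% had groups that did not overlap (4.81% lower and 3.37% higher). Sh2d1b1 lay below the reference on all 8 arrays. S1pr5 exceeded it on 4 Intact and 0 SVX/VAS arrays, and Lair1 on 0 Intact and 2 SVX/VAS arrays. Itga2, also of the surface receptor list and named after its values were seen, exceeded the reference on all 8 arrays. Its groups overlapped, with a difference of 0.54 (SE 0.22, limma adjusted p = 0.37). Lilrb4, named here after its values were seen, had the largest difference of the surface receptors, 0.70, with a wide spread (SD 0.66 and 0.56, n = 4 each; limma adjusted p = 0.49).

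Ligands for the members were measured as well. Clec2h, a relative of the NKR-P1 ligands, read 4.03 to 4.44 in Intact pools and 3.59 to 3.87 in SVX/VAS pools, a 1.42-fold higher mean (0.51, SE 0.12, limma adjusted p = 0.15) below the reference on all arrays. Clec2d, the ligand of Klrb1b, was well above the reference and read 10.26 to 10.62 in Intact pools and 10.76 to 10.93 in SVX/VAS pools, 1.27-fold lower after Intact mating (-0.35, SE 0.10, limma adjusted p = 0.22). Neither passed the test. The tissue-residency genes with the smallest p were Rora, a nuclear receptor (-0.24, limma adjusted p = 0.43), and Cxcr6, a chemokine receptor (-0.25, limma adjusted p = 0.66). The transcription factors with the smallest p were Runx3 (0.24, limma adjusted p = 0.44) and Prdm1 (0.17, limma adjusted p = 0.58). In the granule list, Ctsc, the protease that activates granzymes, read 8.70 to 8.84 in Intact pools and 8.89 to 9.09 in SVX/VAS pools (-0.24, SE 0.09, limma adjusted p = 0.33). Srgn, the proteoglycan that packs granule contents, differed by 0.43 (SE 0.19, limma adjusted p = 0.42).

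The last 2 lists each held 1 gene past the submitters' criteria, which 1.86% of all clusters passed. Of 9 secreted and membrane effectors of NK cells, 8 had a positive difference (50.1% of all clusters and 55.4% of all weak clusters). Their median was 0.26, and 3 had an unadjusted limma p under 0.05 (11.9% of all clusters). Ifng, Fasl, Csf2 and Lta lay below the reference on all 8 arrays, and Ccl3 exceeded it on 2 Intact and 0 SVX/VAS arrays. Tnf read 6.30, 7.42, 6.59 and 7.26 in Intact pools and 5.57, 5.74, 5.83 and 5.37 in SVX/VAS pools. The groups did not overlap, as in 8.17% of all clusters, and the mean was 2.40-fold higher after Intact mating (1.26, SE 0.25, limma adjusted p = 0.11). Many cell types make Tnf, including macrophages and epithelium. The other 8 effectors had limma adjusted p-values from 0.35 to 0.93. Their differences were 0.59 for Ccl3, 0.29 for Csf2, 0.29 for Lta, 0.26 for Ifng, 0.15 for Fasl, 0.13 for Ccl4, 0.10 for Ccl5 and -0.03 for Xcl1. The 18 genes of the gamma chain and NK-activating cytokine axis had a median difference of -0.014, and 4 had an unadjusted limma p under 0.05 (11.9% of all clusters), all lower after Intact mating. Of these, Il18, which acts with IL-12 to induce interferon gamma in NK cells, read 6.58, 6.16, 6.46 and 6.14 in Intact pools and 7.77, 7.29, 7.22 and 7.56 in SVX/VAS pools. It was 2.18-fold lower after Intact mating (-1.13, SE 0.16) with groups that did not overlap and a limma adjusted p of 0.053. Its receptor chain Il18r1 read 6.02 to 6.48 in Intact pools and 6.64 to 6.73 in SVX/VAS pools (-0.36, SE 0.11, limma adjusted p = 0.25), and the other chain, Il18rap, differed by 0.01. The remaining 2 of the 4 were Stat5a (-0.28, SE 0.11, limma adjusted p = 0.37) and Stat5b (-0.26, SE 0.10, limma adjusted p = 0.34), transcription factors that carry IL-2 and IL-15 signals, again with groups that did not overlap. Il18r1, Il18rap, Stat5a and Stat5b were named after their values were seen.

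**Figure D4:**
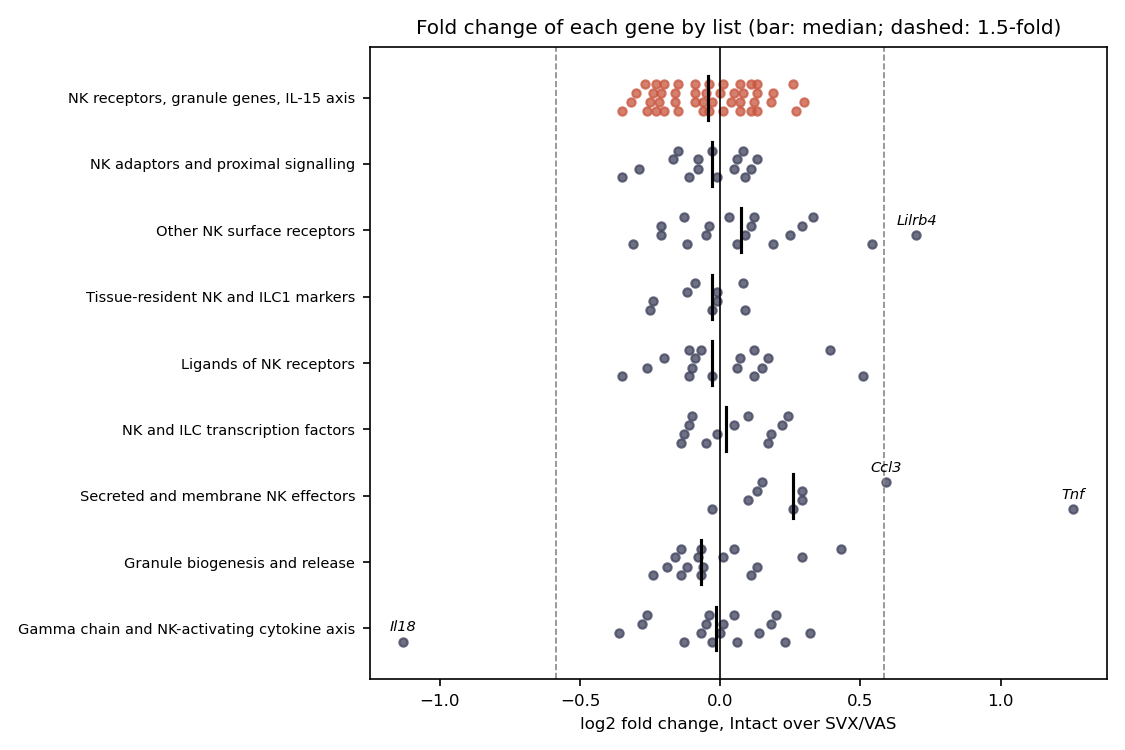
Log2 fold change, Intact over SVX/VAS (horizontal axis), of each gene (dots) in the member set and 8 pathway lists, with a bar at each median and dashed lines at 1.5-fold. The members span -0.35 to 0.30, inside the dashed lines, while Tnf lies at 1.26 and Il18 at -1.13.

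Other cells that could carry these transcripts were followed by 12 marker lists. Limma called 0 of their genes at an adjusted p under 0.05, where 0.0822% of all clusters were called. At an unadjusted limma p under 0.05 there were 3 neutrophil, 2 mast cell, 2 dendritic cell and 1 epithelial marker, and none in the other 8 lists. Over all clusters the share was 11.9%. Stromal markers had a positive difference for 0 of 10 genes, with a median of -0.24 and limma adjusted p-values from 0.64 to 0.97. Smooth muscle markers had one for 7 of 8 genes (median 0.11) and endothelial markers for 2 of 8 (median -0.13). Of all clusters, 50.1% had a positive difference. Of 10 T cell markers, 5 lay below the reference on all 8 arrays, with Cd3e and Cd3g among them, and their mean level per array was 4.80 to 4.95 log2 after Intact and 4.80 to 4.94 after SVX/VAS mating. B cell markers were above the reference on all 8 arrays for 0 of 8 genes. Pan-leukocyte genes were above it for 8 of 9, with mean levels of 6.15 to 6.60 after Intact and 6.10 to 6.55 after SVX/VAS mating. Macrophage and monocyte markers were above it for 7 of 10, at 6.23 to 6.96 and 6.50 to 6.91. Dendritic cell markers were above it for 1 of 8, endothelial markers for 5 of 8 and red cell markers for 0 of 5. Neutrophil markers were above it for 3 of 10, with a mean level of 5.62 to 5.94 after Intact and 5.48 to 5.62 after SVX/VAS mating. Both figures include Ltf, which read 12.66 to 13.07 over the 8 arrays, far above the rest of the list. Its cell source was not tested. Of the 10, 9 had a positive difference and 1, Ly6g, a negative one. Ly6g, above the reference on all 8 arrays, had the smallest p of the list (-0.37, limma adjusted p = 0.20). The others with an unadjusted limma p under 0.05 were Cxcr2 (0.54) and S100a8 (0.70), the latter below the reference on all 8 arrays. Of 10 mast cell and basophil markers, 8 lay below the reference on all 8 arrays, and their mean level was 4.25 to 4.40 after Intact and 3.96 to 4.11 after SVX/VAS mating. Their differences ran from 0.01 (Cma1) to 0.90 (Hdc), with a median of 0.16. Of the 10, 1 passed the submitters' criteria, which 1.86% of all clusters passed. It was the histidine decarboxylase gene Hdc (1.87-fold higher, SE of the log2 difference 0.17, limma adjusted p = 0.092). Kit, the other marker above the reference on all 8 arrays, differed by 0.08. The cell source of Hdc was not tested.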

How the data were processed

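Endometrial RNA from 8 pools was analysed on Mouse Gene 2.0 ST arrays, 4 per group, grouped and numbered by the labels. Per the series text, the authors used Partek Genomics Suite 6.6 with RMA background correction, GC content correction and mean probe summarization; Affymetrix Expression Console appears in the submitters' processing notes, with no version. No source used here gives the genome build. The per-array values the authors deposited are log2 expression. The authors' deposited comparison table gives a p-value and a ratio (linear fold, Intact over SVX/VAS) per cluster, and score columns, namely signed fold change, F and sums of squares, per the file headers. The difference of group means of the per-array values matched the log2 of the deposited ratio within 6e-05, so both come from the same values. Normalization between arrays is not stated beyond RMA; a change common to most transcripts may not appear, and RMA compresses folds of weak genes.

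All 41345 clusters were fitted with limma 3.58.1 (lmFit and eBayes, group only, 6 residual degrees of freedom) in R 4.3.3, with Benjamini-Hochberg adjustment over all clusters and a threshold of 0.05. Intervals are 95% from the moderated fit, and the number of arrays limits their precision. The fit was tested on simulated data. A gene with several clusters was represented by its lowest cluster ID; each member had 1. Tables and figures used Python 3.11.15 with pandas 2.3.3, numpy 2.4.6, matplotlib 3.10.9 and Biopython 1.88. Promoters came from RefSeq (GRCm38.p6), matched by symbol or synonym for 37 of 46 members.

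The members, the 8 pathway lists and the 12 marker lists were chosen with earlier results of these data known. By rule, per-array values are given for 22 members: the 10 listed genes, Gzma, Gzmb, Klrk1, Klrd1 and Klrb1c, any member past a threshold, and in each role group the smallest p in each direction; in each pathway list, genes past a threshold or else the 2 smallest p are named. Alternatives to the test were the methods' t-test, the deposited p-values, trend and robust eBayes, and the replicate number as a block. Those to the values or clusters were quantile normalization, median centring, a filter on weak clusters, and only the 27037 clusters that had a gene symbol. Each array was also left out.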

Additional observations from a re-analysis of the deposited data

Results flagged for a closer look

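With 4 arrays a group, a lowest or highest array stood far from the other 3 in 2 of 92 sets (46 members in 2 groups), when its gap to the nearest array was set against the group's range (above the 95% critical value of Dixon's test); chance gives about 5% of sets. Both were Intact pool 3. Klrb1c read 4.59 there, with the nearest Intact pool at 3.88 and the lowest at 3.75 (ratio 0.851). Gzmg read 4.10 there, with the nearest at 3.85 and the lowest at 3.81 (ratio 0.850).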

How the results depend on the processing

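The count of members called was 0 under each of the 9 alternatives that change the test, scaling or filter and under each left-out array, and the lowest adjusted p of a member among them was 0.23 (limma, without Intact pool 3, where 5 members had an unadjusted p under 0.05). The members' median difference, -0.044, lay between -0.045 and -0.009 under the other alternatives (the latter with the filter on weak clusters, which kept 10 members) and between -0.099 and 0.022 with 1 array left out, turning positive without SVX/VAS pool 4 alone. For the 22 members named by rule, all 161 values under the other alternatives kept their direction and stayed uncalled; with 1 array left out 163 of 176 did, and 13 turned sign. Those that turned sign ranged over left-out arrays from -0.26 to 0.00 (Tyrobp, without Intact 1), -0.06 to 0.13 (Klre1, without Intact 2 or SVX/VAS 2), -0.02 to 0.23 (Klrc1, without Intact 2), -0.13 to 0.08 (Tbx21, without Intact 3, SVX/VAS 1 or SVX/VAS 4), -0.06 to 0.28 (Klrb1c, without Intact 3 or SVX/VAS 4), -0.17 to 0.10 (Eomes, without Intact 3 or SVX/VAS 1), -0.03 to 0.19 (Ncr1, without SVX/VAS 2) and -0.22 to 0.04 (Il2rb, without SVX/VAS 4). In a list of 18 cytokine axis genes 1 (Il18) was called with median centring or with trend and robust eBayes. Il18 was also called under the filter on weak clusters and with only the clusters that had a symbol. Under that filter and that restriction fewer clusters are adjusted for, and 1 effector (Tnf) and 1 mast cell marker (Hdc) were also called.

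The background count of 34 called clusters was far less stable. It was 10 by the methods' t-test after Benjamini-Hochberg and 10 from the authors' deposited table (6 shared with the 34 in each case). By the t-test unadjusted with 1.5-fold it was 768. It was 54 after quantile normalization, 450 with the filter, 173 with trend and robust eBayes and 234 with only clusters that had a symbol. With 1 array left out it ranged from 2 to 50: 2 without Intact 1, SVX/VAS 3 or SVX/VAS 4, 3 without SVX/VAS 1, 4 without Intact 2, 9 without SVX/VAS 2, 21 without Intact 4 and 50 without Intact 3; the cause was not tested. Fitting the replicate number as a block in limma left 0 calls (4620 clusters at an unadjusted p under 0.05). The numbers are not taken to pair the samples: residuals of same-numbered arrays correlated at 0.068, 0.026, -0.021 and -0.033. The alternative choice of cluster per gene gave no value, since each member has 1 cluster. Signal over background limits the rest: 34 of 46 members lay below the olfactory reference on all 8 arrays.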
